A study of Mus musculus with 6 samples.

Results

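A set of 9 genes that sense, move and store sterols was followed in mouse macrophages exposed to oxLDL, low-density lipoprotein particles that have been oxidised and bring cholesterol into these cells. They were Srebf2, Scap, Insig1, Insig2, Mylip, Stard4, Npc1, Npc2 and Soat1. The genes were chosen by symbol, as the genes that regulate sterol supply rather than the enzymes that make sterols. Earlier results of these data were known when they were chosen. All 9 were found among the 24054 genes of the deposited tables. All 9 also passed the filter on low counts that left 11400 genes for testing. The cells were bone marrow-derived macrophages of wild-type (WT) C57BL/6 mice, grown for 7 days in medium conditioned by L929 cells, a fibroblast line. Of the 6 libraries, 3 came from cells given oxLDL at 50 µg/ml for 24 hours and 3 from untreated cells, and each group carried the numbers 1, 2 and 3. A lipoprotein that had not been oxidised was not among the groups, and the labels do not say whether a number stands for an animal, a pool or a culture.

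Cells hold their cholesterol within narrow limits through a loop in the endoplasmic reticulum (ER). When ER cholesterol is low, SCAP carries the transcription factor SREBP2, the product of Srebf2, to the Golgi, where proteases release its active part. When it is high, SCAP binds the INSIG proteins and the complex stays in the ER. Cholesterol taken up with lipoproteins leaves the lysosome through NPC2 and NPC1, moves between membranes with carriers such as STARD4, and is stored in droplets as an ester made by SOAT1. MYLIP, also called IDOL, marks lipoprotein receptors for degradation and is induced by the sterol receptor LXR. A foam cell is a macrophage filled with such ester droplets.

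Totals lay between 13546572 and 15559310 expected counts per library. In log2 CPM, the counts of a gene scaled to a common library size, across the tested genes, libraries 1 and 2 of a group correlated at r = 0.984 in untreated cells and 0.983 in oxLDL cells, while library 3 correlated with the others of its group at 0.889 to 0.922. The libraries numbered 3 thus stood apart in both groups, and each gene's values are also given with a pair left out. Untreated library 3 and oxLDL library 3 correlated with each other at 0.964, more closely than either did with its own group. The 8 macrophage genes looked up summed to 12857 to 35497 CPM in untreated and 9034 to 15997 CPM in oxLDL libraries, and 7 of them had a negative log2 fold change. Fcgr1, an Fc receptor, fell from 368, 512 and 579 CPM to 41.5, 15.3 and 41.8 CPM (-3.98 ± 0.44 with the library number as a block, edgeR adjusted p = 0.0287). Itgam (1127 to 3165 CPM untreated, 298 to 566 with oxLDL) and Emr1 (3088 to 9153 and 451 to 2499) were lower without overlap and did not pass, Cd68 was higher without overlap and did not pass, and Csf1r, Lyz2, Cd14 and Mertk overlapped. The 6 fibroblast markers stayed at or below 0.410 CPM in sum, the 4 NK-cell markers at or below 0.200 and the 4 erythroid markers at or below 0.205, the 5 dendritic-cell markers were at 1.64 to 3.75 CPM untreated and 1.54 to 3.26 with oxLDL, and Pdgfra, Gzma, Tpsb2 and Hbb-b1 were at 0 in every library. Sums of 5 T-cell markers (8.12 to 31.1 CPM untreated, 4.85 to 15.7 with oxLDL) and 4 B-cell markers (3.48 to 38.0 and 1.74 to 9.55) overlapped between groups. Those of 6 neutrophil markers (6.35 to 21.7 and 1.07 to 3.77), 3 endothelial markers (39.2 to 77.8 and 21.6 to 35.5) and 4 mast-cell markers (2.80 to 22.2 and 23.3 to 36.4) did not overlap. Most of the T-cell sum came from Cd4, of the B-cell sum from Cd79b, of the endothelial sum from Kdr and Pecam1 and of the mast-cell sum from Kit, while Cd3e, Cdh5 and Mcpt4 stayed at or below 0.432 CPM. The part of these markers in the results was not tested. In bulk RNA, fewer cells of a type and less of a transcript per cell cannot be told apart.

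The promoters of 4 of the genes are shown because they differ in direction: Srebf2 and Insig1 were lower, and Mylip and Soat1 higher, on average with oxLDL. Each line holds the 250 bases before the annotated start, from RefSeq on build GRCm38.p6, read 5′ to 3′ on the strand of the gene. The regions are chr15:82147019-82147268 on the plus strand for Srebf2, chr5:28071162-28071411 on the plus strand for Insig1, chr13:45389492-45389741 on the plus strand for Mylip and chr1:156474329-156474578 on the minus strand for Soat1. Capitals mark the letters found in a search of both strands for CCAAT, the box bound by NF-Y, and for TCACCCCA, the core of the sterol regulatory element to which SREBP binds.
Srebf2: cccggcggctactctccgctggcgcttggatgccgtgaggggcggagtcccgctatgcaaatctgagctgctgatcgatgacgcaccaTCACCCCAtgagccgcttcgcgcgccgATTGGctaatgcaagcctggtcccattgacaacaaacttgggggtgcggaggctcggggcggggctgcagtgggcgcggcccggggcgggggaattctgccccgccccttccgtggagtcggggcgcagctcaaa
Insig1: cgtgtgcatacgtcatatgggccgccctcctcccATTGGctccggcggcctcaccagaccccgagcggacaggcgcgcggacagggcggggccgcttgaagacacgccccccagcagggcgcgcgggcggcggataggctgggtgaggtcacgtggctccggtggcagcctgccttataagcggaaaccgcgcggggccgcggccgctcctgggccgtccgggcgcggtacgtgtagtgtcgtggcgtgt
Mylip: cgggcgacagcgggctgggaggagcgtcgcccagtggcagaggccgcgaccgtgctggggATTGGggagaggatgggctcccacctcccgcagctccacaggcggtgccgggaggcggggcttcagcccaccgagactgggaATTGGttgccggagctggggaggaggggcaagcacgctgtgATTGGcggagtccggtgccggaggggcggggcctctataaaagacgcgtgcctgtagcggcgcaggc
Soat1: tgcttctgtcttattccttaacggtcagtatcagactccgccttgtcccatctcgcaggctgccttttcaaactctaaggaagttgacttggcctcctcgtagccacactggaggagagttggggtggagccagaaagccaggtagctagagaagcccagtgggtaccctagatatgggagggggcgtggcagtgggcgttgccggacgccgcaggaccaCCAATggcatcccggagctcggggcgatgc
The table held 10 windows of 300 bases for 7 of the 9 genes, the exceptions being Stard4 and Npc1. The longer sterol element TCACNCCAC was in 0 of the 10 windows and in 1.24% of all 32851 windows of that length. The core TCACCCCA, which overlaps the longer element in part and was searched for after the sequences had been seen, was found in Srebf2 alone among the 7 genes, starting 162 bases before the start of the gene, and in 1.56% of all windows. In the Srebf2 window a CCAAT box on the opposite strand followed it at 135 bases before the start. CCAAT boxes, which are common (37.4% of all windows), numbered 1 in Insig1, 3 in Mylip, 2 in Npc2, 1 in Soat1, 3 in the 3 windows of Insig2 and 0 in those of Scap. A direct repeat of GGTCA with 5 bases between the copies, a form of LXR site, was in none of the 10 windows and in 0.0761% of all. These matches describe letters in a window and not occupied sites, and binding was not measured.

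The comparison of oxLDL with untreated cells asked which of these transcripts differ after a day with the lipoprotein. Stard4 fell to 0.375 of its untreated level, the only one of the 9 past the threshold, and it passed only when the number of a library was used as a block. Srebf2, Insig1 and Npc2 were also lower in all 3 numbered pairs, and Insig2, Mylip, Npc1 and Scap were higher in all 3, without passing. Soat1 and Npc1 were higher in pairs 1 and 2 and close to level in pair 3. Fold changes below are log2 values of oxLDL over untreated with their standard error (SE) from edgeR's quasi-likelihood test with Benjamini-Hochberg adjustment over all 11400 genes, where an adjusted p under 0.05 passes. Levels are CPM scaled with TMM factors, a correction for library composition.

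Without the block 0 of the 9 genes passed, as did 0 of the 11400 genes tested (0% called; smallest adjusted p = 0.0667), although 1674 genes had an unadjusted p under 0.05. Unblocked limma-voom called 10 genes and DESeq2 873. With the block 1 of 9 genes passed, beside 5.89% of all genes (1.91% rose and 3.98% fell). Of the 9 genes, 8 had the same direction in all 3 pairs, against 53.3% of all genes. The groups did not overlap for 2 of 9, Mylip and Npc2, against 21.1% of all genes. The median log2 fold change of the 9 was 0.25 with the block and 0.22 without it, beside 0.01 with and without it over all genes, and it combined 4 negative with 5 positive values.

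**Figure D1:**
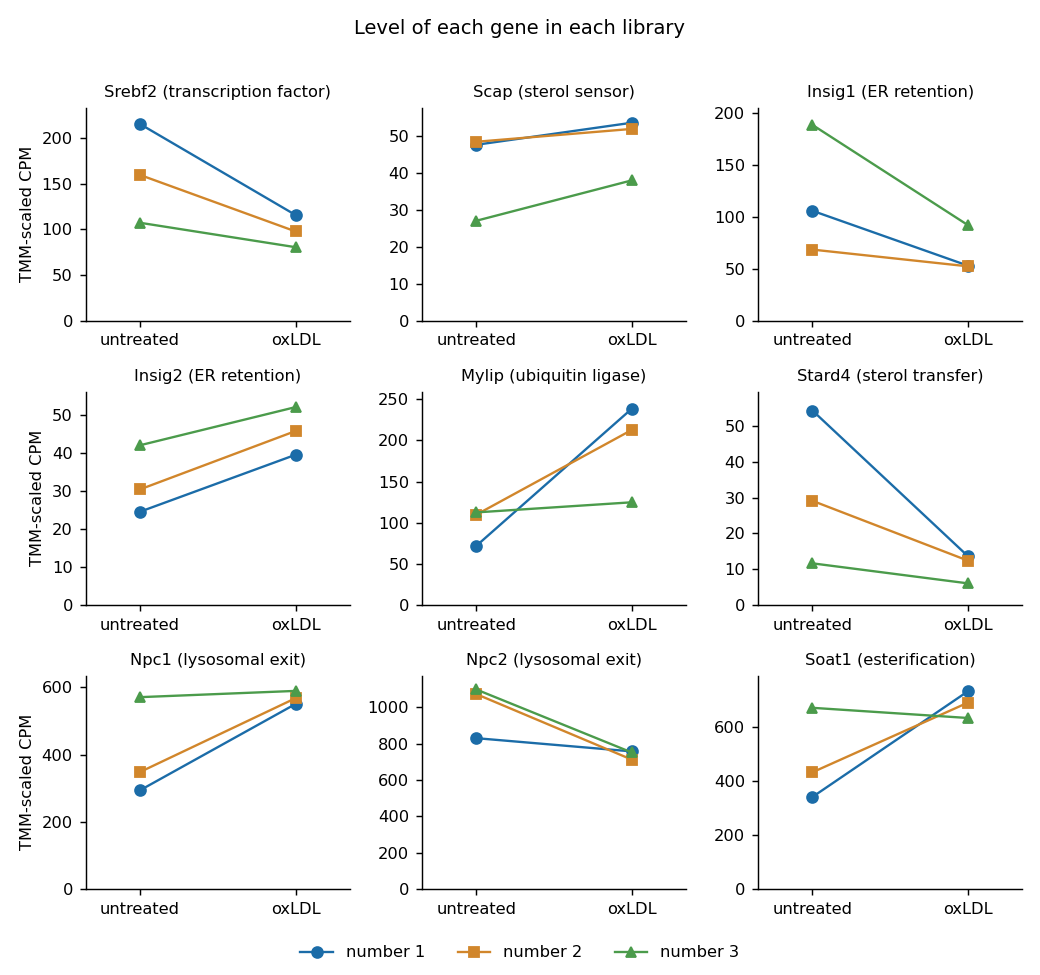
CPM of each gene (vertical axis, from 0, a scale of its own in each panel) in untreated and oxLDL libraries, with a line joining libraries of the same number. Lines for Stard4, Srebf2 and Insig1 slope down in all 3 numbers, while for Npc1 and Soat1 number 3 is nearly flat and starts at the level the others reach with oxLDL.

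Srebf2, which encodes SREBP2, measured 215, 160 and 107 CPM in untreated libraries 1, 2 and 3 and 116, 97.8 and 80.5 CPM in the oxLDL libraries of the same numbers. The oxLDL library was the lower in every pair, but the groups overlapped, since untreated library 3 lay below oxLDL library 1. The group means were 161 ± 54.0 and 98.0 ± 17.6 CPM (SD, n = 3 per group). Its log2 fold change was -0.67 ± 0.14 with the block (edgeR adjusted p = 0.0623) and -0.71 ± 0.29 in the fit without a block (adjusted p = 0.340), so the threshold was not reached. The log2 ratios of pairs 1, 2 and 3 were -0.89, -0.71 and -0.41. Leaving out pair 1, 2 or 3 gave -0.57, -0.66 and -0.80 with the block (edgeR adjusted p = 0.330, 0.310 and 0.00802). Here and for the genes below, such a fit rests on 2 pairs. Without pair 3, 29.7% of all tested genes passed, against 0% without pair 1 or pair 2. Srebf1, the related gene that mainly serves fatty acid synthesis, had a log2 fold change of -0.08 ± 0.12 with the block and lay between 68.1 and 86.5 CPM in all 6 libraries.

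Scap, the sterol-sensing escort of SREBP, measured 47.7, 48.5 and 27.1 CPM untreated and 53.7, 52.0 and 38.1 CPM with oxLDL. Libraries numbered 3 were the lowest of each group, and the groups overlapped. The log2 fold change was 0.25 ± 0.13 with the block (edgeR adjusted p = 0.259) and had a 95% interval of -0.08 to 0.58. It was 0.29, 0.33 and 0.13 without pair 1, 2 or 3, and none of these passed. In the fit without a block it was 0.22 ± 0.27, and -0.0051 when untreated library 3 was left out of that fit.

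Insig1, an ER anchor of SCAP that is itself a target of SREBP, measured 106, 68.6 and 189 CPM untreated and 53.1, 52.5 and 92.1 CPM with oxLDL. The libraries numbered 3 were the highest of both groups, and oxLDL library 3 lay above untreated library 2. Its log2 fold change was -0.81 ± 0.17 with the block (edgeR adjusted p = 0.0638) and -0.88 ± 0.43 in the fit lacking it (adjusted p = 0.412). Pairs 1 and 3 had like ratios, -0.996 and -1.03, and pair 2 had -0.39. With the block it was -0.72, -1.02 and -0.70 without pair 1, 2 or 3 (edgeR adjusted p = 0.329, 0.142 and 0.0392), and without a block it was -0.40 when untreated library 3 was left out. Insig2, the other anchor, which is not driven by SREBP in the same way, measured 24.5, 30.4 and 42.0 CPM untreated and 39.5, 45.7 and 52.0 CPM with oxLDL. It was higher in each pair, with ratios of 0.69, 0.59 and 0.31, while the groups overlapped through untreated library 3. The log2 fold change of Insig2 was 0.53 ± 0.12 with the block (edgeR adjusted p = 0.0761), and 0.44, 0.50 and 0.64 without pair 1, 2 or 3 (adjusted p = 0.388, 0.357 and 0.0151).

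The anchors had opposite signs, and their ratio restates this within each library. Insig1 counted 4.33, 2.26 and 4.49 per Insig2 in untreated libraries 1, 2 and 3 and 1.34, 1.15 and 1.77 in oxLDL libraries, and the groups did not overlap. This ratio was among 5 chosen after the levels had been seen, and its exact two-sided permutation test gave p = 0.10, the smallest that 3 against 3 libraries allow (adjusted over the 5 ratios, 0.167, which did not pass). The ratios compare groups only, because transcripts of different length give different counts.

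Mylip, the ligase that removes lipoprotein receptors, measured 71.7, 110 and 112 CPM untreated and 239, 213 and 125 CPM with oxLDL. Every oxLDL library lay above every untreated one, but library 3 by little. The level was 3.33 times the untreated one in pair 1, 1.94 times in pair 2 and 1.11 times in pair 3. The log2 fold change was 0.95 ± 0.33 with the block (edgeR adjusted p = 0.146) and 0.97 ± 0.31 in the fit lacking it (adjusted p = 0.240), both short of the threshold. Dropping pair 1, 2 or 3 gave 0.55, 0.94 and 1.34 with the block (edgeR adjusted p = 0.458, 0.478 and 0.0148).

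**Figure D2:**
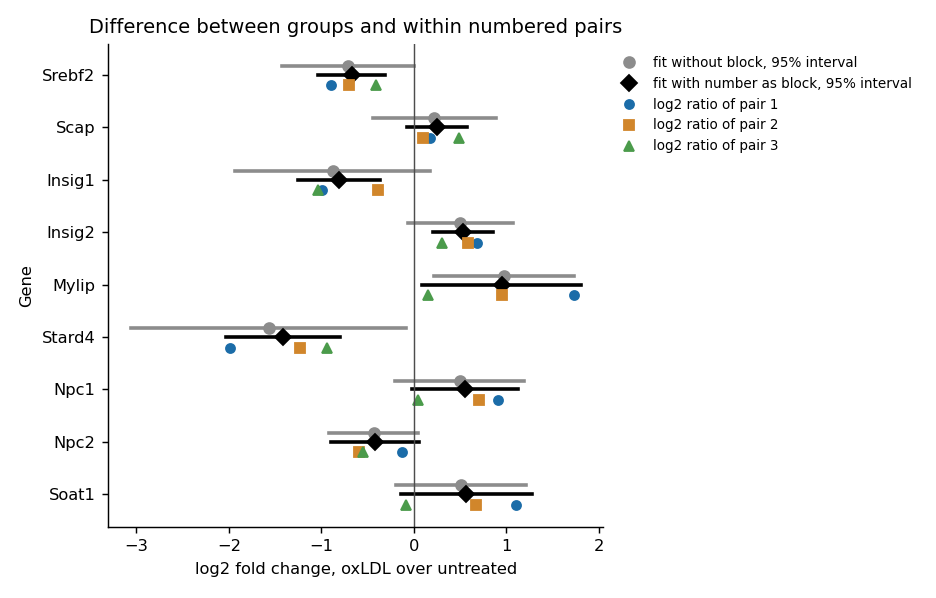
Log2 fold change of each gene (horizontal axis, oxLDL over untreated) from the fit without the block (grey) and with it (black), with 95% intervals, and the log2 ratio of each numbered pair below. The block shortened the intervals of Stard4, Srebf2 and Insig1 most, and pair 3 lies nearest to 0 for Srebf2, Insig2, Mylip, Stard4, Npc1 and Soat1.

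Stard4, a soluble carrier that moves cholesterol between membranes and a target of SREBP2, measured 54.3, 29.1 and 11.6 CPM untreated and 13.6, 12.4 and 6.01 CPM with oxLDL. It was lower in each pair, with log2 ratios of -1.99, -1.23 and -0.93. The untreated libraries were far apart among themselves, and untreated library 3 lay inside the oxLDL range. With the block its log2 fold change was -1.41 ± 0.24 (95% interval -2.03 to -0.80, edgeR adjusted p = 0.0452), and in the fit lacking it -1.57 ± 0.61 (adjusted p = 0.318). The call ended without pair 1 (-1.10, adjusted p = 0.204) or pair 2 (-1.50, adjusted p = 0.192) and held without pair 3 (-1.63, adjusted p = 0.00776). The genes whose levels followed the 6 libraries most like Stard4 were Foxp1, Magi3 and P2rx1, with root mean square differences of 0.178, 0.186 and 0.193 in centred log2 CPM. Foxp1, a forkhead transcription factor, went from 263, 198 and 68.0 CPM to 86.4, 74.2 and 43.1 CPM. Magi3 and P2rx1 did not pass with the block (edgeR adjusted p = 0.0809 and 0.0814), and P2rx1 was low, between 0.217 and 3.28 CPM.

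Npc1, the lysosomal membrane protein that exports cholesterol, measured 293, 348 and 571 CPM untreated and 550, 568 and 589 CPM with oxLDL. The oxLDL libraries were nearly alike (569 ± 19.5 CPM; SD, n = 3), whereas the untreated ones spread widely (404 ± 147 CPM), and untreated library 3 was already inside the oxLDL range. The log2 ratios of pairs 1, 2 and 3 were 0.91, 0.71 and 0.05. The log2 fold change was 0.55 ± 0.22 with the block (edgeR adjusted p = 0.182), with a 95% interval of -0.02 to 1.13. It was 0.37 without pair 1 (adjusted p = 0.638), 0.48 without pair 2 (adjusted p = 0.600) and 0.81 without pair 3 (adjusted p = 0.0117).

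Npc2, the soluble lysosomal protein that hands cholesterol to NPC1, measured 831, 1073 and 1099 CPM untreated and 758, 712 and 752 CPM with oxLDL. All oxLDL libraries lay below all untreated ones, although pair 1 differed by little, with log2 ratios of -0.13, -0.59 and -0.55. Its log2 fold change was -0.42 ± 0.18 with the block (edgeR adjusted p = 0.208), short of the threshold, and -0.58, -0.34 and -0.36 without pair 1, 2 or 3, none of which passed. The partners therefore had opposite signs, which their ratio restates. Npc1 per Npc2 was 0.353, 0.324 and 0.519 untreated and 0.726, 0.797 and 0.784 with oxLDL, without overlap. The exact permutation test, which leaves out the numbers, gave p = 0.10, the smallest that 3 against 3 libraries allow. Adjusted over the 5 ratios, which were chosen after the levels had been seen, it was 0.167, which did not pass.

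Soat1, the enzyme that esterifies cholesterol for storage, measured 341, 432 and 671 CPM untreated and 732, 690 and 633 CPM with oxLDL. It was the only one of the 9 genes whose pairs differed in sign, with log2 ratios of 1.10, 0.68 and -0.08. The log2 fold change was 0.57 ± 0.27 with the block (edgeR adjusted p = 0.241). Without pair 1 it was 0.29 (adjusted p = 0.729), without pair 2 it was 0.51 (adjusted p = 0.639) and without pair 3 it was 0.89 (adjusted p = 0.0150). Soat1 and Npc1 had like values in every library: Soat1 per Npc1 stayed between 1.07 and 1.33, with means of 1.19 ± 0.04 untreated and 1.21 ± 0.13 with oxLDL (SD, n = 3; exact permutation p = 1, adjusted p = 1). This ratio was also among those chosen after the levels had been seen, so its test is no support for the likeness. Both genes, and Mylip, had expected counts that were not whole in all 6 libraries, so some of their reads were shared with other genes.

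**Figure D3:**
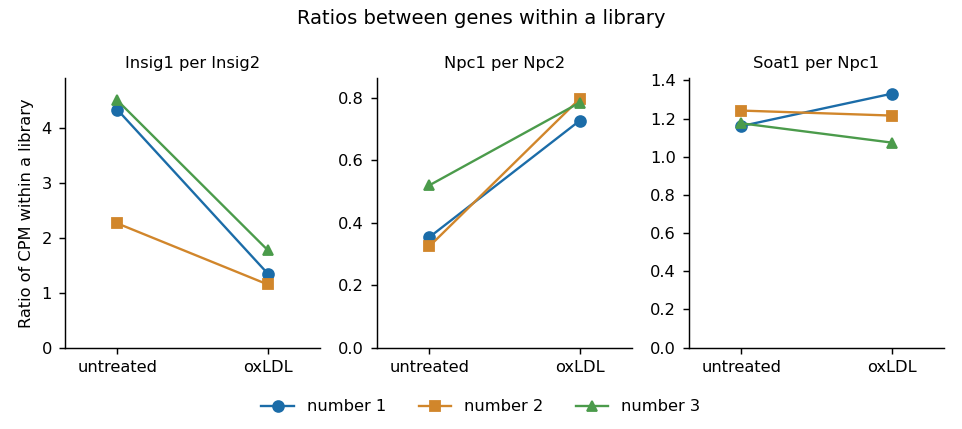
Ratio of the CPM of 2 genes within a library (vertical axes, from 0), in untreated and oxLDL libraries, with a line joining libraries of the same number. Insig1 per Insig2 is lower, and Npc1 per Npc2 higher, in every oxLDL library than in any untreated one, while Soat1 per Npc1 stays between 1.07 and 1.33.

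The libraries numbered 3 bore on these genes as on many others, so each count is given beside the share of all tested genes. Untreated library 3 lay within the range of the oxLDL libraries for 5 of 9 genes (Srebf2, Insig2, Stard4, Npc1 and Soat1), beside 44.0% of all tested genes. The same held for 1 of 9 with untreated library 1 and 2 of 9 with untreated library 2, beside 30.6% and 31.3% of all genes. Pair 3 had the smallest ratio in size for 6 of 9 genes, beside 48.4% of all genes. With pair 3 left out, 7 of 9 genes passed with the block, 4 higher (Insig2, Mylip, Npc1 and Soat1) and 3 lower (Srebf2, Insig1 and Stard4), where 29.7% of the 11543 genes tested passed. With pair 1 or pair 2 left out 0 of 9 passed, and 0 of all genes. Single libraries moved values of the fit without a block as well. Without untreated library 1, Srebf2 went from -0.71 to -0.45, Stard4 from -1.57 to -0.94, Insig2 from 0.50 to 0.33, Npc1 from 0.49 to 0.30 and Soat1 from 0.51 to 0.30. Without untreated library 3, Npc1 and Soat1 went to 0.83. DESeq2 with the block called 4 of 9, Srebf2, Insig1 and Stard4 lower and Mylip higher, beside 16.3% of all genes. Whether pair 3 responded differently was not tested, since a pair held 1 library per group.

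Genes that act beside these 9 were looked up by role, with the block throughout, where 1.91% of all genes rose and 3.98% fell. Without the block 0 genes of each of these lists passed. Of 17 genes of SREBP processing and sterol-regulated degradation, 0 rose and 0 fell, and the median log2 fold change was -0.08. The Golgi protease Mbtps2, which cuts SREBP, measured 63.9, 62.4 and 65.2 CPM untreated and 99.6, 99.0 and 80.3 CPM with oxLDL (0.54 ± 0.12, edgeR adjusted p = 0.0734). Pgrmc1, a haem-binding membrane protein, had a value of 0.55 ± 0.13 and the ER ligase Rnf145 one of -0.85 ± 0.25, and neither passed. Of 9 tested genes of lipoprotein uptake and its regulation, 1 rose and 1 fell. Lrp8, a lipoprotein receptor, rose from 4.50, 2.30 and 44.9 CPM to 26.6, 39.5 and 166 CPM (2.73 ± 0.45, edgeR adjusted p = 0.0454), and Nr1h3, which encodes LXR alpha, fell (-1.23 ± 0.20, edgeR adjusted p = 0.0452).

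Of 25 tested genes of lysosomal cholesterol exit and sterol transfer, 0 rose and 1 fell, beside 1.91% and 3.98% of all genes. This was Stard3, an endosomal sterol carrier, which measured 105, 108 and 96.1 CPM untreated and 48.4, 38.3 and 47.4 CPM with oxLDL (-1.21 ± 0.14, edgeR adjusted p = 0.0287, and 0.0718 without the block). The groups were far apart for Stard3 and its untreated libraries were close, unlike those of Stard4. Gpr155, a lysosomal cholesterol sensor, had a log2 fold change of -1.86 ± 0.44 and the caveolae protein Cav1 one of 1.84 ± 0.65, and neither passed. Of 6 tested genes of cholesteryl ester turnover 1 fell, beside 3.98% of all genes. It was Lipe, hormone-sensitive lipase (-1.07 ± 0.14, edgeR adjusted p = 0.0355). The droplet coat protein Plin2 measured 419, 687 and 739 CPM untreated and 1054, 1661 and 896 CPM with oxLDL, without overlap, and missed the threshold (0.96 ± 0.28, edgeR adjusted p = 0.103). The lipase Pnpla2 missed it as well at 0.60 ± 0.14. Soat2, the second esterifying enzyme, lay between 4.03 and 22.0 CPM and had a value of 0.16 ± 0.20.

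Of 19 sterol synthesis enzymes 3 fell and 0 rose, beside 3.98% of all genes that fell. Among them were Dhcr7 (-1.22 ± 0.12) and Pmvk (-1.06 ± 0.16). Of the 19, 18 had a negative value, beside 5540 of all 11400 genes, and the median was -1.03. Of the 9 genes, Stard4 (-1.41), Insig1 (-0.81), Srebf2 (-0.67) and Npc2 (-0.42) had the same sign, of which Stard4 alone passed, and the other 5 were positive. A link between these values was not tested. Cyp51 (-1.24 ± 0.31) did not pass. Idi1 did not pass either (adjusted p = 0.0556 in edgeR with the block), and its log2 ratio was -2.99 in pair 1, -1.75 in pair 2 and -1.19 in pair 3. Of 9 LXR targets, Arl4c rose (1.06 ± 0.17, edgeR adjusted p = 0.0444) and Nr1h3 fell, beside 1.91% and 3.98% of all genes. The other 7 did not pass, among them Apoc2 (-1.75 ± 0.55) and Pltp (-1.53 ± 0.37). Of the 9 values 4 were positive and 5 negative, with a median of -0.08. Mylip (0.95), a target of the same receptor that did not pass, had the sign of Arl4c, Abcg1 (0.34), Lpcat3 (0.25) and Abca1 (0.12). The 5 negative LXR targets were Nr1h3, Apoc2, Pltp, Apoe (-0.30) and Srebf1 (-0.08).

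**Figure D4:**
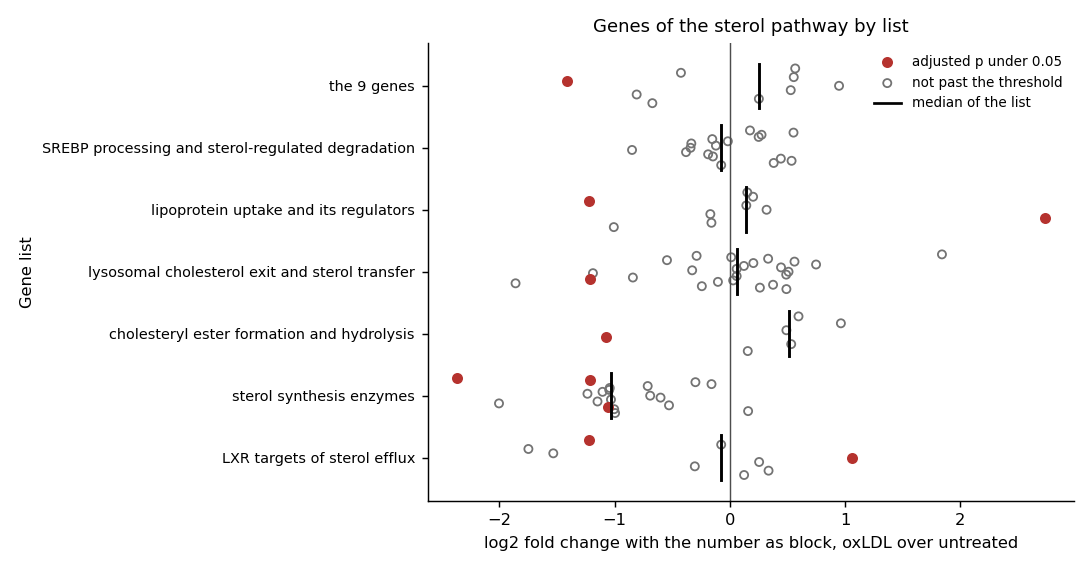
Log2 fold change with the number as a block (horizontal axis, oxLDL over untreated) of every tested gene of the 9 and of 6 lists of neighbouring genes, each point a gene, filled where it passed, with the list's median as a bar. The sterol synthesis enzymes lie to the left of 0 but for 1, while the 9 genes spread to both sides.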

How the data were processed

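RNA of 6 samples was sequenced from poly(A)-selected libraries made with a stranded kit, per the labels' protocols. The authors deposited expected counts per gene made with RSEM, per the file's name. The submitters' processing notes list Bowtie2 2.1.0, RSEM 1.2.15, edgeR and the human build hg19, although the samples were mouse, so no coordinates were taken from the files. For the annotation and the strand setting of the counting, no tool or file was given in the sources used here. A TMM-scaled signal was also deposited, in CPM per the file's name. Its values were whole multiples of a constant per library (100% whole within 0.005). The reads recovered from it equalled the rounded expected counts for 100% of genes in each library. With edgeR they therefore had to give the same calls, 0 without the block and 672 with it, and are no separate check.

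Expected counts were rounded, filtered with filterByExpr (minimum count 10, minimum total 15) and scaled with TMM factors of 0.942 to 1.06. Groups were compared with quasi-likelihood tests in edgeR 4.0.16 (robust, R 4.3.3) on all 11400 genes, adjusted over all of them. The fit without a block was planned as the main one, since the labels state no pairing, and the fit with the block as its alternative. Groups and numbers came from the titles. Deviations from the group means correlated across genes at r = 0.66, 0.45 and 0.70 between same-numbered libraries. All were above the limit of 0.1 taken as pairing. Untreated 2 with oxLDL 1 (0.63) and untreated 1 with oxLDL 2 (0.20) were above it too. Passing the limit therefore cannot show which of the libraries numbered 1 and 2 belong together, and the block rests on the numbers in the titles. Since the labels name no separate cultures or animals, the p-values reflect the spread between these libraries alone, which may be technical. Alternatives were DESeq2 1.42.0, limma 3.58.1, other scaling, no filter and leaving out libraries. The scripts were tested on simulated counts. The 9 genes and the lists were chosen with earlier results of these data known. Beyond the 9, genes named from a list passed the threshold or were among its 3 largest changes with the block, and the genes most like a gene that passed are the 3 nearest in centred log2 CPM (prior count 2). Srebf1, Soat2, Abca1, Abcg1, Lpcat3 and Apoe were named in addition, after their values were seen. The values of some genes of the lists, and 2 of the 5 ratios, are not reported here.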

Additional observations from a re-analysis of the deposited data

How the results depend on the processing

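Of the 9 genes, those past the threshold numbered 0 in edgeR without the block, with DESeq2 size factors, with library totals alone, with no filter, on recovered reads, in DESeq2, limma-voom and limma on the deposited CPM, and without any 1 library. With the replicate block they numbered 1 in edgeR, on rounded or recovered counts, 1 in limma-voom and 4 in DESeq2, and between 0 and 7 with a pair left out. In edgeR the replicate block altered the call of Stard4 and of no other of the 9. Calls over all genes were 0 in edgeR and 672 with the replicate block. They were the same on recovered reads, which equal the rounded counts. They were 8 with no filter, 873 in DESeq2 and 1853 in DESeq2 with the replicate block, 10 in limma-voom and 926 with the replicate block, and 11 and 12 in limma on the deposited CPM with a pseudocount of 1 or 0.5. Leaving out 1 library gave 0 to 737 calls without the block (737 without untreated library 3, 31 without oxLDL library 3), and leaving out a pair gave 0 to 3424 with it. Over 21 alternatives, which include the fits on recovered reads that repeat the rounded counts, 8 of the 9 genes kept their sign. The value of Scap turned to -0.0051 without untreated library 3 in the fit without a block, and ran up to 0.35 without oxLDL library 3. Scaling by library totals alone shifted the median of all genes by 0.10 and turned the sign of none of the 9. The lowest count behind a value of the 9 genes was 83 (Stard4, oxLDL library 3).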
